A study of Mus musculus with 18 samples.

Results

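The 6 livers of mice that received the LIPA vector on the FPC diet fell into 3 with a high and 3 with a low share of their counts on genes of cytosolic ribosomal proteins. The share was the percent of a library's total raw counts on rows of the Rpl and Rps genes, of which 76 matched the name rule, and 5% separated the classes. FPC-LIPA 36, 39 and 37 were the high-share livers, with 6.19%, 7.84% and 7.71% of counts on these rows. FPC-LIPA 31, 33 and 34 were the low-share livers, with 2.83%, 2.33% and 2.07%. Values of the livers are given in this order throughout. FPC-LIPA 36 (6.19%) and FPC-LIPA 31 (2.83%) were nearest to the 5% line, and no liver lay between them. These 6 livers are 1 group of the series' 18, with 6 FPC-GFP and 6 CON-GFP livers, and the share ranged from 1.38% to 1.73% in FPC-GFP and from 1.68% to 2.43% in CON-GFP.

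All mice were male C57BL/6J bought at an age of 7 weeks, with 1 library per mouse. They received an adeno-associated virus (AAV8) whose TBG promoter restricts expression to hepatocytes, carrying GFP or human LIPA, which encodes lysosomal acid lipase (LAL). After 1 week they began 16 weeks of a purified control diet (CON) or of the FPC diet, rich in fructose, palmitate and cholesterol with sugar in the drinking water, and livers were taken after a fast of 4 h. The row for mouse Lipa does not measure the human transgene. It held 276, 288 and 388 CPM (counts per library size, with TMM scaling over the 18 libraries) in the low-share livers 31, 33 and 34 and 294, 246 and 281 CPM in the high-share livers 36, 39 and 37, so the classes overlapped and no value here shows how much vector each liver expressed.

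Ribosomal proteins are made in step with each other and with translation factors, because their mRNAs share a pyrimidine tract at the 5′ end that couples their translation to growth signals. Ribosomal protein mRNAs, like those of many small subunits of the respiratory chain and the proteasome, are short and abundant in liver. Counts of a bulk library are shares of a whole, so a gene can take a larger share when its own RNA rises or when other RNA falls. In bulk liver RNA, fewer cells of a type and less RNA per cell cannot be told apart.

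The livers were split by a readout of the same libraries, so the difference between the classes is given as a description, without a test. A gene was counted as separated when its fitted fold was at least 2 and the CPM of the 3 high-share and 3 low-share livers did not overlap. Tests were made against the 6 FPC-GFP livers for each class, and on the 12 GFP livers, which the 5% line did not use. The classes were set by the ribosomal share, so their calls against FPC-GFP describe the livers chosen. Genes that go with that share were selected along with it, and their adjusted p is no test of the vector.

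Members of one family or one cell type parted in the split, which the lysosomal and globin pairs shown here carry, while the first pair holds 1 gene of the 10 highest and 1 of the 10 lowest. The first 90 coding bases of each are shown 5′ to 3′ as spliced in 1 GENCODE transcript on GRCm38, with G and C in capitals, because the split followed base composition. Zfp931, a zinc finger gene, and Ppp1r9b, a scaffold protein of the actin skeleton, are among the genes with the largest differences in each direction. Lamp2 and Lamp1 are membrane proteins of the lysosome, and Hbb-bs and Hba-a1 are the globin chains that red blood cells join into hemoglobin.
Zfp931: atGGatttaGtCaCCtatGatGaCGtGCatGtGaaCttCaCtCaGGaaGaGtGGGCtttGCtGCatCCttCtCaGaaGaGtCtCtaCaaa
Ppp1r9b: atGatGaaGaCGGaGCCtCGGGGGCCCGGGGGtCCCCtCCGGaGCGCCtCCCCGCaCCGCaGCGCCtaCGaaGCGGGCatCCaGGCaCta
Lamp2: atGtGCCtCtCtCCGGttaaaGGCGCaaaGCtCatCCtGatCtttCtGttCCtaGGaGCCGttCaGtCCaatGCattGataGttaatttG
Lamp1: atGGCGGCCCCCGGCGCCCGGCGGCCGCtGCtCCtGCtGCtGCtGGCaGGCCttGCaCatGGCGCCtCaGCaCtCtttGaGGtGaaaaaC
Hbb-bs: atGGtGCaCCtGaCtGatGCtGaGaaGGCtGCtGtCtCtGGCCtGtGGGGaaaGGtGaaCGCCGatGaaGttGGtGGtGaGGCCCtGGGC
Hba-a1: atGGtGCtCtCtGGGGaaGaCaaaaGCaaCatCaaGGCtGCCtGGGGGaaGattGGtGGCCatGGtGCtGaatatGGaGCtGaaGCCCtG
G or C made up 40 of the 90 bases in Zfp931, 65 in Ppp1r9b, 41 in Lamp2 and 62 in Lamp1. In both of these pairs the member with fewer G and C was the higher one in high-share livers, by log2 differences of 3.36 for Zfp931 against -2.0 for Ppp1r9b and 1.82 for Lamp2 against -0.01 for Lamp1. The globin pair ran the other way in this stretch, with 54 in Hbb-bs and 49 in Hba-a1, and Hbb-bs was the higher one (2.13 against -0.47). Over the longest transcript of the gene Hbb-bs had 51.3% GC and Hba-a1 57.2%. The genes lie at chr2:178067695-178078476 on the minus strand (Zfp931), chr11:94991035-95006899 on the plus strand (Ppp1r9b), chrX:38401357-38456454 on the minus strand (Lamp2), chr8:13159161-13175338 on the plus strand (Lamp1), chr7:103826534-103828096 on the minus strand (Hbb-bs) and chr11:32283511-32284465 on the plus strand (Hba-a1). The pairs were chosen after their values were seen, and another choice gives another picture. Lypla1, among the 10 highest at 3.21, held 58 G or C in its first 90 coding bases, and Lrrc25, among the 10 lowest at -2.07, held 45.

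Total counts per library ranged from 16632146 (FPC-LIPA 37) to 37739301 (FPC-LIPA 36) and genes with at least 10 counts from 13494 to 15616 in the FPC-LIPA livers, and any pair of their libraries differed far beyond counting noise (chi-square per degree of freedom from 60.3 to 591). The TMM factor was from 0.792 to 0.898 in high-share livers and from 1.07 to 1.22 in low-share livers. FPC-LIPA 37 stood apart from the other high-share livers and also carries an S number in its label far from those of the other 5, which run from 64 to 68. Its title alone ends in a letter (37b), and the sources used here do not say what the letter stands for. Whether the library kit, unstranded or stranded, differed between the classes is not given in the sources used here, so kit and class cannot be told apart. Among 9696 genes with a mean of at least 5 CPM, FPC-LIPA 37 was at least 2-fold above both other high-share livers for 464 and at least 2-fold below both for 235. Those counts were 276 and 78 for FPC-LIPA 39, 12 and 75 for FPC-LIPA 36, and at most 76 and 132 for a low-share liver (FPC-LIPA 33). For some but not all values that changed direction or crossed the 2-fold limit without FPC-LIPA 37, the value without it is given.

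All but 1 of the 76 ribosomal rows were higher in the high-share livers and 60 were separated, with a median log2 difference of 1.81, beside 24.5% separated among all other tested genes. These values were fixed by the choice of livers, and only their spread was not. Rpl17, a protein of the large subunit, had 537, 595 and 406 CPM in low-share livers and 2813, 4694 and 5338 CPM in high-share livers, a log2 difference of 3.10. Rps12 and Rps24 of the small subunit followed with 3.03 and 2.98. At the other end Rpl8 had 313, 260 and 306 CPM in low-share livers and 350, 285 and 216 CPM in high-share livers, a log2 difference of -0.01, and Rps10 had 0.20. The ribosomal rows thus differed widely in size, and Rpl8, Rps10, Rpl4 (0.43), Rpl23a (0.56) and Rplp0 (0.61) overlapped between the classes. The median over 46 rows of the large subunit was 1.63 and over 30 rows of the small subunit 2.24.

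Against FPC-GFP, the 76 rows had a median log2 fold change of 0.49 in the low-share livers, with 5 called and higher (Rpl17, Rpl39, Rpl41, Rpl9 and Rps14), and of 2.46 in the high-share livers, with 63 called and higher. The classes were set by the counts on these rows, so both counts of calls are a description and no test. Of all other genes tested, 0.732% and 33.9% were called in these comparisons (edgeR quasi-likelihood test, fold of at least 2 and adjusted p under 0.05).

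**Figure D1:**
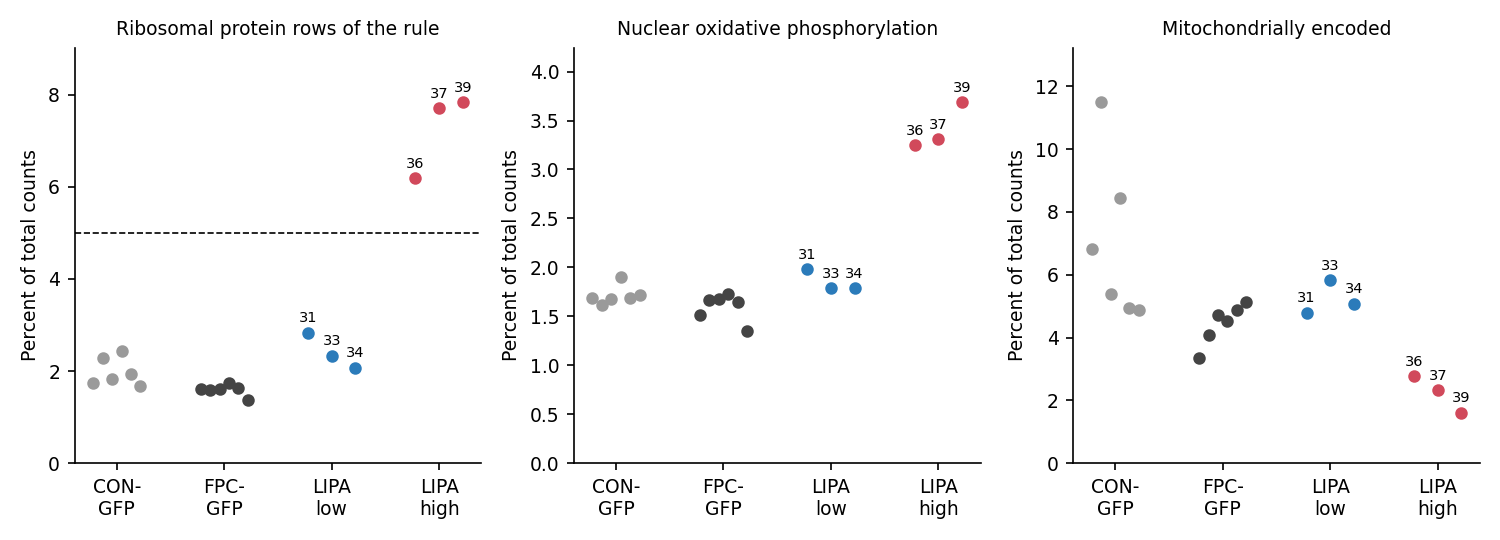
Percent of each library's raw counts on ribosomal rows of the rule, nuclear oxidative phosphorylation genes and mitochondrially encoded genes (y axes) in CON-GFP, FPC-GFP, low-share and high-share FPC-LIPA livers (x axis), 1 point per liver with the 5% line dashed. The high-share livers lie at 6.19% or more for ribosomal rows, above all others for nuclear oxidative phosphorylation genes, and at 2.76% or less for mitochondrially encoded genes.

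The nuclear genes of oxidative phosphorylation took 3.25% to 3.69% of counts in high-share livers against 1.79% to 1.98% in low-share livers and 1.35% to 1.73% in FPC-GFP. The mRNAs encoded by the mitochondrial genome, which supply other subunits of the same complexes, took 1.61% to 2.76%, 4.79% to 5.83% and 3.34% to 5.13%. Neither share overlapped between high-share and low-share livers, and the summed share of the nuclear genes lay higher where that of the mitochondrial genes lay lower. The 2 mitochondrial ribosomal RNAs moved against the mitochondrial mRNAs, with 0.26% to 0.977% of counts in high-share and 0.0845% to 0.111% in low-share livers. Its part in the other differences was not tested.

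Across all 14845 tested genes outside the ribosomal rows, 3640 were separated (24.5%), of which 2135 were higher (14.4%) and 1505 lower (10.1%) in high-share livers. Without a fold minimum 6974 did not overlap (47%), 3480 higher (23.4%) and 3494 lower (23.5%). Scaled by library size alone the split was 1053 higher and 3888 lower, since the median log2 difference of all genes was then -0.52 and not -0.06. Within FPC-LIPA 31, 33, 34, 36 and 39, 2926 of the 3640 kept their sign at a fold of at least 2.

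Of 79 tested nuclear oxidative phosphorylation genes, 46 were separated and higher and 0 lower, with a median log2 difference of 1.23 (0.77 by library size alone). Atp5e, the epsilon subunit of ATP synthase, had 272, 439 and 281 CPM in low-share livers and 1484, 2987 and 2430 CPM in high-share livers, a log2 difference of 2.84. Ndufb4, an accessory subunit of complex I, had 105, 93.2 and 79.9 CPM against 378, 569 and 573 CPM (log2 2.49). Ndufv1, the complex I subunit that binds NADH, had 140, 164 and 193 CPM against 157, 156 and 102 CPM (log2 -0.22). The accessory subunits were higher without overlap in these examples, whereas the NADH-binding subunit of the same complex overlapped between the classes. The median was 1.102 over 37 genes of complex I, 0.74 over 4 of complex II, 1.02 over 9 of complex III, 1.503 over 12 of complex IV and 1.53 over 17 of ATP synthase, and each complex held at least 1 member below 0. Uqcrc1, a core protein of complex III, was at -0.16 (0.003 without FPC-LIPA 37), Cox8a of complex IV at -0.87 and Atp5g2 of the membrane ring of ATP synthase at -0.35. The division by complex and these examples were chosen after the values were seen.

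**Figure D2:**
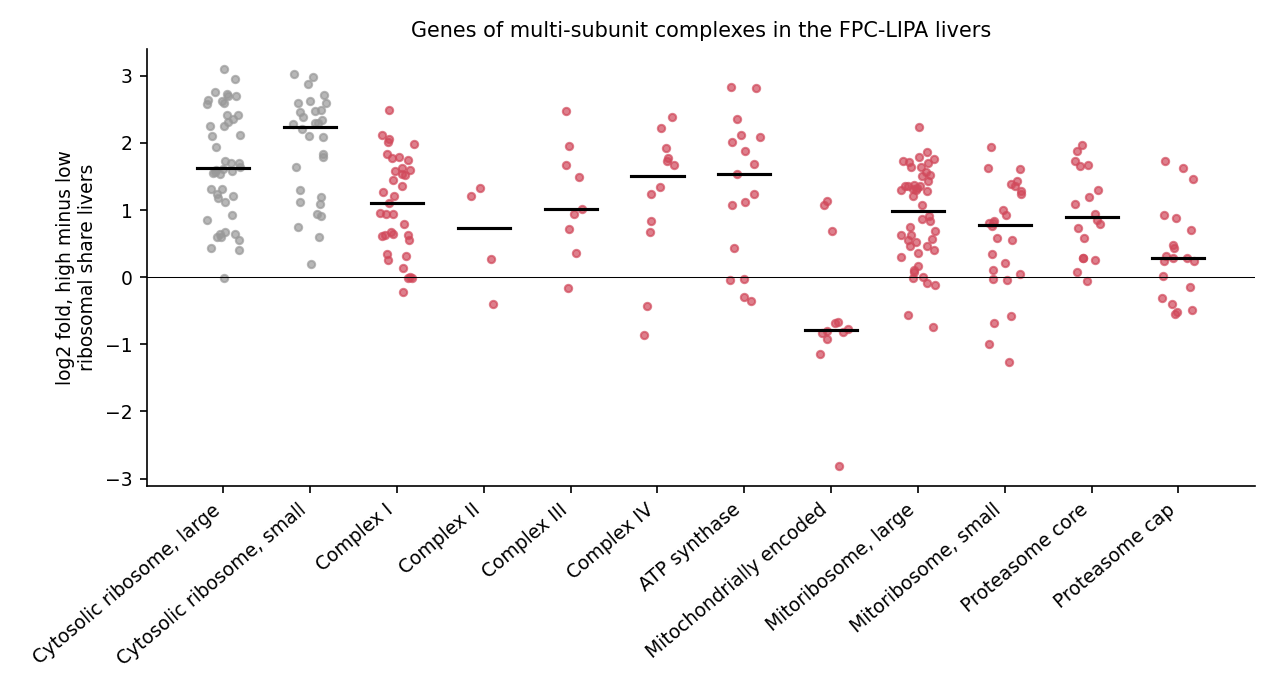
Log2 difference between high-share and low-share livers (y axis) for each tested subunit gene, 1 point per gene, grouped by complex (x axis) with a bar at the median and the ribosomal rows of the rule in grey. Medians lie at 1.63 and 2.24 for the cytosolic ribosome, between 0.74 and 1.53 for respiratory complexes and at 0.90 for the proteasome core. The cap is drawn as 1 group, and the medians of its ATPase and other genes taken apart were 0.24 and 0.38.

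Mitochondrial ribosomal proteins, which build the separate ribosome inside mitochondria, had 32 of 74 separated and higher and 1 lower, with a median of 0.83. The one that was lower, Mrps2, had 29.25, 37.5 and 33.5 CPM in low-share livers and 17.4, 13.4 and 9.56 CPM in high-share livers. Mrpl12, Mrpl14 and Mrpl30 of the large subunit were separated and higher by 1.70, 1.71 and 1.65. Ribosome partners outside the name rule were alike, with 5 of 8 separated and higher at a median of 1.68, namely Rps27l (2.95), Fau (2.27), the precursor of a small-subunit protein, Rps27rt (2.20), Rpl22l1 (2.06) and the ribosome-bound scaffold Rack1 (1.30). Of 20 translation factors and other genes with a 5′ pyrimidine tract, 9 were separated and higher, with a median of 0.78 over all 20, and 1 was lower, the elongation factor Eef2 (-1.25). Eef1a1, the factor that brings tRNA to the ribosome, had 5612, 3433 and 5683 CPM against 12920, 16700 and 8127 CPM (log2 1.40).

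The proteasome genes had 11 of 38 separated and higher and 0 lower. In the core, whose alpha and beta subunits form the proteolytic barrel, 8 of 18 genes were separated and higher with a median of 0.90, and the summed CPM was 1940, 1493 and 1722 in low-share livers against 3794, 3843 and 3505 in high-share livers. In the cap, which unfolds the substrate, 1 of 6 ATPase genes (Psmc6, 1.63) and 2 of 14 others (Psmd10, 1.73, and Psmd14, 1.46) were separated and higher, with medians of 0.24 and 0.38. The summed CPM of the cap was also higher without overlap, with 546, 505 and 536 against 738, 606 and 726 for the ATPase genes and 1129, 1047 and 1151 against 1486, 1303 and 1397 for the others. The difference between core and cap was not tested. Psma6 and Psma7 of the core had log2 differences of 1.88 and 1.73. Scaled by library size alone, the median over all 38 proteasome genes was 0.08.

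The mitochondrially encoded genes had a median log2 difference of -0.79 over 12 tested (-1.003 without FPC-LIPA 37), and mt-Nd4 and mt-Nd4l were separated and lower. mt-Nd3 (1.13), mt-Atp6 (1.07) and mt-Co3 (0.69) were above 0 with overlap. Without FPC-LIPA 37, mt-Nd3, mt-Atp6 and mt-Co3 were at 0.57, 0.026 and -0.079. mt-Co1, the catalytic subunit of complex IV, had 19010, 19180 and 21330 CPM in low-share livers and 16890, 9377 and 9862 CPM in high-share livers, without overlap at a log2 difference of -0.68. mt-Nd4 of complex I had 2391, 4550 and 3295 CPM against 1575, 1012 and 1918 CPM (-1.15). The rows of mt-Nd3, mt-Co2, mt-Co3, mt-Atp6, mt-Atp8 and mt-Nd4l share sequence with nuclear copies and are uncertain.

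The split also followed the length and base composition of the genes. By exon length the median log2 difference was 1.36 over 426 genes of at most 500 bases, 1.08 from 500 to 1000, 0.30 from 1000 to 2000, -0.07 from 2000 to 4000, -0.23 from 4000 to 8000 and -0.26 above 8000. By GC content it was 0.96 up to 40%, 0.50 from 40% to 45%, 0.04 from 45% to 50%, -0.38 from 50% to 55% and -0.69 above 55%. Short genes lay higher at either composition, with 1.29 over 233 genes of at most 1000 bases and at most 45% GC and 1.07 over 586 of at most 1000 bases and above 50% GC. Longer genes parted by composition, with 0.58 over 3761 genes of at most 45% GC and -0.57 over 6257 above 50%. The separated genes had a median exon length of 2266 bases and 44.9% GC when higher, and 4383.5 bases and 54.8% GC when lower, against 4014 bases and 49.3% over all genes.

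These trends were present in each high-share liver. Relative to the FPC-GFP mean, genes of at most 500 bases had a median of 1.01, 1.08 and 1.11 in high-share livers, and from 0.15 to 0.32 in the low-share livers. Genes of at most 40% GC had 0.87, 0.64 and 1.31 in the same order and from -0.19 to 0.35 in the low-share livers. Among GFP livers CON-GFP 2 lay within the range of the high-share livers for genes of at most 40% GC (0.75), and at -0.56 above 55%. When the trends on length and on GC were removed together, 2047 genes were separated, 1261 higher and 786 lower. With the GC trend removed the differences became 0.90 for Lamp2, -0.78 for Col1a1, 1.81 for Col3a1, 2.27 for Hbb-bs, 1.96 for Zfp931 and -1.25 for Ppp1r9b, each with its sign unchanged.

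**Figure D3:**
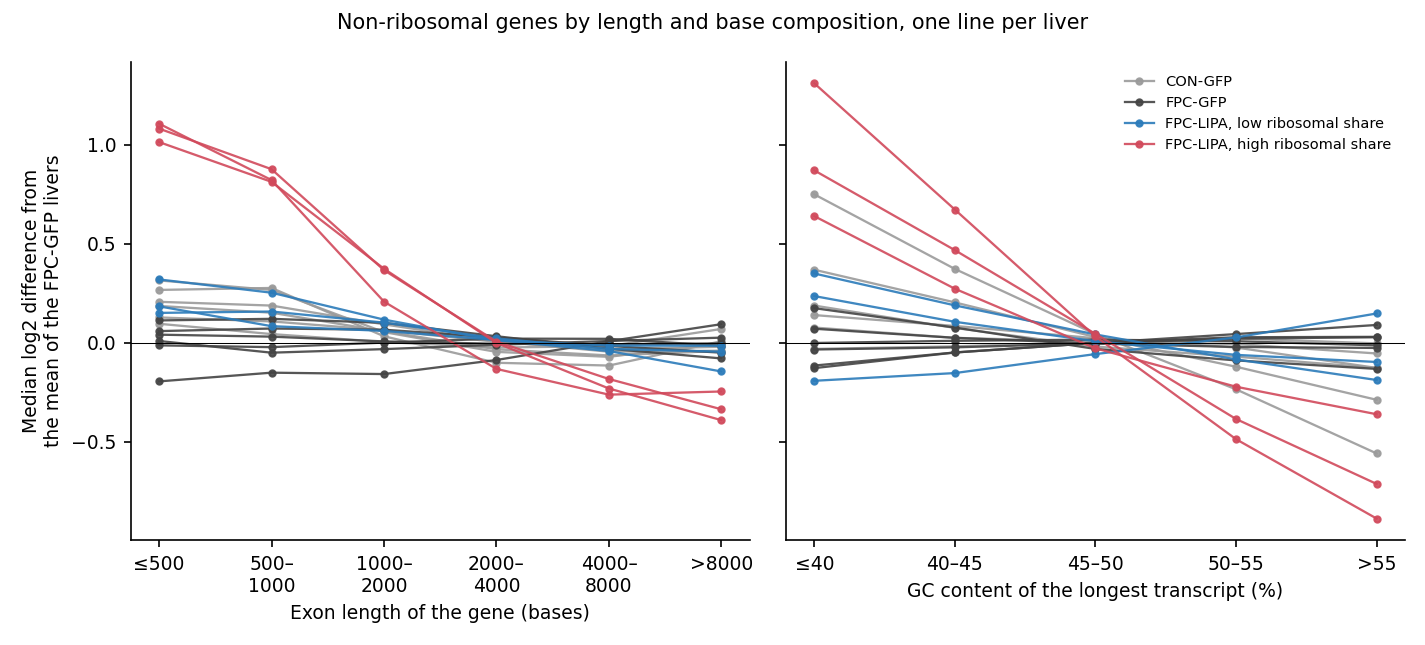
Median log2 difference of each liver from the FPC-GFP mean (y axis) by exon length and by GC content of the genes (x axes, in bins), 1 line per liver coloured by class. The 3 high-share livers lie at 1.01 to 1.11 for genes of at most 500 bases and at 0.64 to 1.31 for genes of at most 40% GC, and fall below 0 for long and GC-rich genes.

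By biotype, 280 of 615 processed pseudogenes were separated and higher and 36 lower, and these rows may hold reads of their parent genes. Protein-coding genes had 1536 higher and 1413 lower of 12901, a balance that rests on the scaling, with 1691 higher and 1204 lower when protein-coding genes alone were fitted. Long intergenic RNAs had 96 higher and 14 lower of 364, and antisense genes had 88 and 8 of 317, whose reads cannot be told from those of the opposite gene without a known strand setting. Among nuclear long RNAs, Snhg1 (1.58) and Mir22hg (1.09) of 8 tested were separated and higher and Malat1 lower, with 115, 83.3 and 59.1 CPM in low-share livers and 38.9, 37.9 and 34.1 CPM in high-share livers (-1.18).

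Genes were named by rule as the largest differences among separated protein-coding genes of at least 5 CPM over the FPC-LIPA livers, or among called ones of at least 5 CPM over the class and the FPC-GFP livers together. Of the 10 highest in the split, 4 belonged to the major urinary proteins, pheromone carriers that male liver secretes. Mup18 had 49.6, 41.1 and 52.0 CPM in low-share livers and 183, 1356 and 1063 CPM in high-share livers, a log2 difference of 4.23. Mup22, Mup11 and Mup16 had 3.35, 3.33 and 3.15, and 18 of 21 tested genes of the family were separated and higher. FPC-GFP livers ranged from 78.2 to 455 CPM for Mup18, so that the low-share livers lay below and 2 of the 3 high-share livers above them. The members are near copies of each other, and how their counts are shared out is uncertain.

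Outside this family Zfp931 had 4.601, 1.94 and 4.28 CPM against 16.5, 27.6 and 64.2 CPM (log2 3.36). S100g, a calcium-binding protein, had 2.65, 0.515 and 1.37 CPM against 12.7, 11.0 and 18.3 CPM (3.26). Lypla1, an enzyme that removes palmitate from proteins, had 60.01, 37.2 and 60.8 CPM against 180, 139 and 1101 CPM. For Lypla1 the log2 difference was 3.21 and 1.64 without FPC-LIPA 37, whereas S100g kept 3.02. Vamp7, a fusion protein of late endosomes, went from 3.20 to 2.15 without that liver and Mthfd2l, a mitochondrial folate enzyme, from 2.91 to 1.23, with FPC-LIPA 31 and 36 level at 1.83 CPM.

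Among the genes with the lowest differences were the GTPases Rac2 of blood cells and Rhog, and the extracellular superoxide dismutase Sod3. Rac2 had 10.2, 46.2 and 22.5 CPM in low-share livers and 4.42, 2.75 and 3.64 CPM in high-share livers, a log2 difference of -2.83. Rhog had 14.9, 38.1 and 28.2 CPM against 4.81, 6.16 and 3.72 CPM (-2.43), and Sod3 had 24.8, 57.7 and 43.8 CPM against 8.20, 12.6 and 9.64 CPM (-2.02). In each of the 3 genes FPC-LIPA 33 was the highest liver and the classes did not overlap. Igfbp5 (-2.24), which binds insulin-like growth factors, Dtx4 (-2.16), Plekho2 (-2.10), Lrrc25 (-2.07), the Wnt co-receptor Lrp5 (-2.07), Ly6e (-2.03) and Ppp1r9b (-2.0) completed the lowest 10.

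Markers of a single cell type often differed in direction. Counts of separated markers, here and below, stand beside 14.4% higher and 10.1% lower among all genes. Of 10 markers of stellate cells, the collagen-making cells of the liver, 1 was separated and higher and 4 were lower, with a median of -0.38 (-0.59 without FPC-LIPA 37), and their summed CPM was 339 to 436 in low-share, 356 to 1057 in high-share and 258 to 329 in FPC-GFP livers. Col1a1 and Col3a1 encode collagen chains. Col1a1 had 12.9, 24.7 and 14.9 CPM in low-share livers and 7.64, 5.28 and 5.61 CPM in high-share livers (-1.46). Col3a1 had 98.5, 72.4 and 58.6 CPM against 139, 106 and 398 CPM (1.53, and 0.71 without FPC-LIPA 37). Both genes lacked overlap between the classes, in opposite directions, and the contractile proteins Acta2 (-1.66) and Des (-1.63) and the growth factor receptor Pdgfrb (-1.54) were lower. Dcn, a proteoglycan of the matrix, had 198, 161 and 168 CPM against 241, 177 and 550 CPM with overlap.

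**Figure D4:**
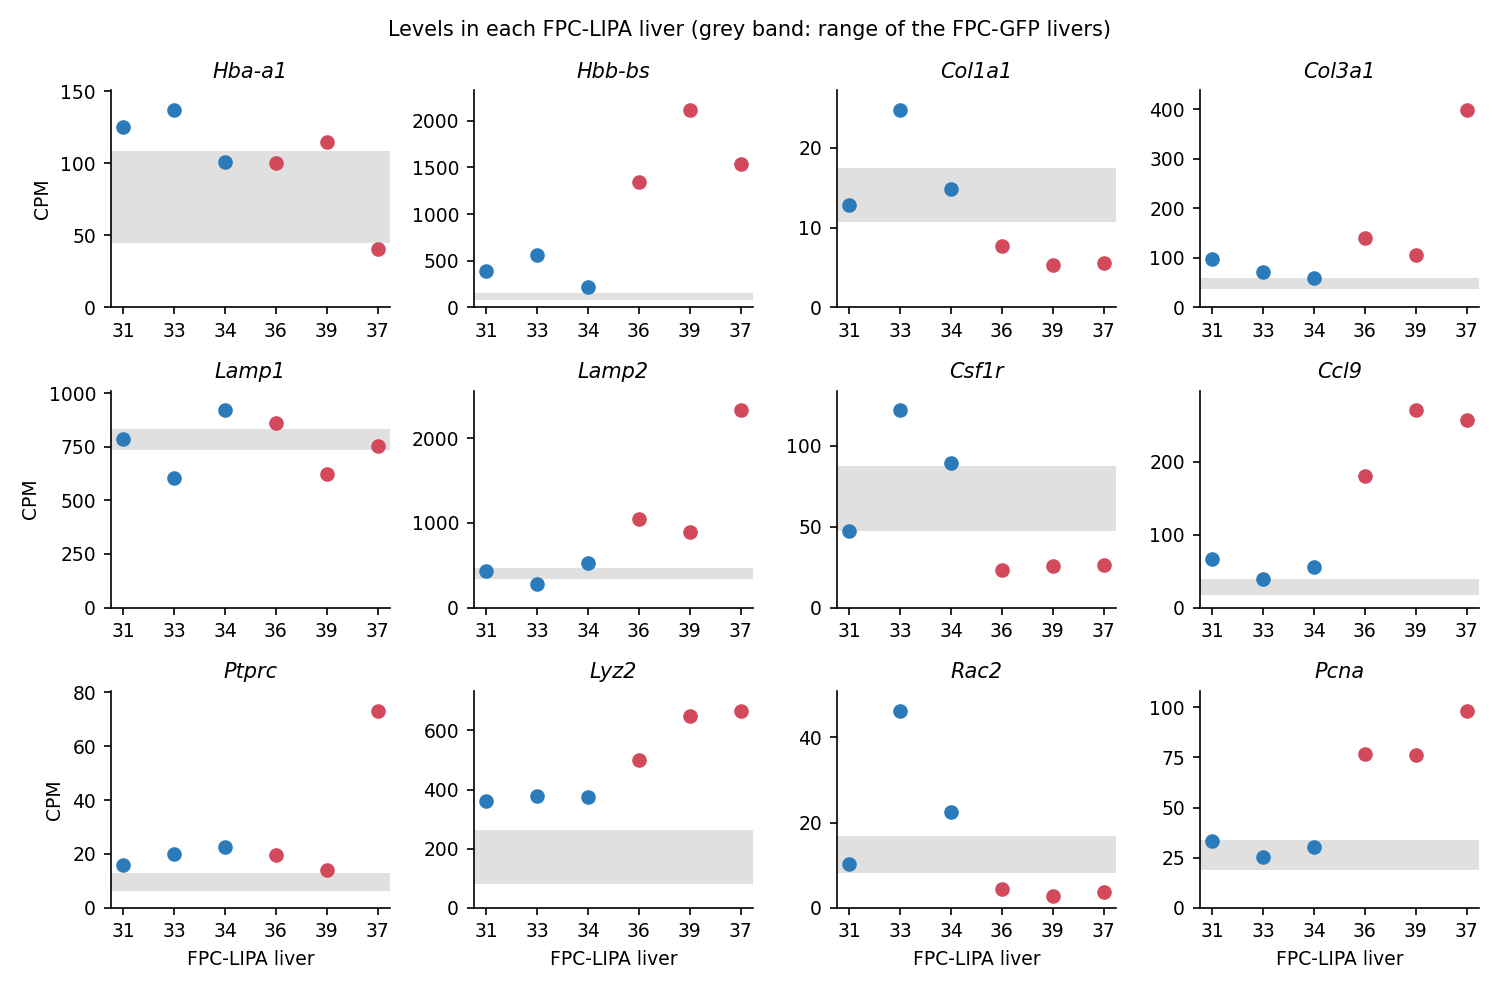
CPM of single genes in each FPC-LIPA liver (y axes, 1 panel per gene, low-share livers to the left of high-share livers) with the range of the 6 FPC-GFP livers as a grey band. Col1a1 and Csf1r were lower and Col3a1, Hbb-bs, Ccl9, Lamp2 and Pcna higher in every high-share liver than in every low-share liver, while Hba-a1, Lamp1 and Ptprc overlapped.

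Of 10 monocyte and macrophage markers 0 were separated and higher and 3 were lower, with a median of -0.25 (-0.70 without FPC-LIPA 37), and their summed CPM was 579 to 591 in low-share, 625 to 931 in high-share and 192 to 483 in FPC-GFP livers. Csf1r, the receptor that macrophages need to survive, had 47.1, 122 and 89.0 CPM in low-share livers and 23.3, 25.8 and 26.3 CPM in high-share livers (-1.74), and Cd68 (-1.59) and the low-count Ly6c2 (at most 0.228 CPM in a high-share and at least 0.857 CPM in a low-share liver) were the others. Lyz2, the lysozyme of myeloid cells, had 360, 379 and 373 CPM against 501, 650 and 667 CPM (0.75), so it lay higher in each high-share liver where Csf1r lay lower. Of 8 markers of Kupffer cells, the resident macrophages, 0 were separated and the median was 0.07 (-0.36 without FPC-LIPA 37 and -0.40 by library size alone). Marco varied most among them, from 1.48 CPM in FPC-LIPA 31 to 115 CPM in FPC-LIPA 33.

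Lymphocyte markers parted in the same way at low counts, with a summed CPM for 8 B cell markers of 14.9 to 25.4 in low-share, 9.82 to 25.2 in high-share and 1.97 to 12.0 in FPC-GFP livers. Among 8 B cell markers the surface protein Ms4a1 was separated and higher (1.84) and the receptor chain Cd79a (-2.21) and Fcmr (-2.22) were separated and lower. Among 6 T cell markers tested the receptor chains Cd3d (2.64) and Cd3g (1.34) were higher and Trac (-3.19) lower, with 0.0437 to 0.152 CPM of Trac in high-share livers. Among 6 NK cell markers the granzyme Gzma (2.098) and the receptor Klrd1 (3.40) were separated and higher. Ptprc, which encodes CD45 of all leukocytes, had 15.8, 19.9 and 22.6 CPM against 19.5, 14.0 and 73.1 CPM, so that only FPC-LIPA 37 lay apart and the difference of 0.91 became -0.18 without it. Of 8 neutrophil markers 3 were tested, of which S100a8 (2.52) and S100a9 (1.72) were higher and Csf3r (-1.79) lower, while the defining markers Ly6g, Mpo and Elane had 0, 1 and 13 counts in all 6 livers together.

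The globins of red blood cells parted by chain. Hbb-bs had 386, 565 and 220 CPM in low-share livers and 1346, 2112 and 1533 CPM in high-share livers (2.13), and Hbb-bt had 59.7, 45.8 and 33.8 CPM against 185, 230 and 219 CPM (2.22). Hba-a1 had 125, 137 and 101 CPM against 100, 115 and 40.2 CPM (-0.47). Hba-a2 was at -0.65 with overlap, and Alas2, the first enzyme of heme synthesis in red cells, at -0.91 without. Both beta chains were thus higher in every high-share liver while the alpha chains they pair with overlapped. The summed CPM of the 5 red blood cell markers was 523 to 947 in low-share, 1761 to 2586 in high-share and 284 to 478 in FPC-GFP livers.

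Of 8 hepatocyte markers 0 were separated, and their median was -0.10. The counts for hepatocyte genes stand beside the 24.5% of all genes that were separated. Alb, the albumin gene, had 31060, 51230 and 53120 CPM in low-share and 46530, 43060 and 35810 CPM in high-share livers. Of 20 genes of hepatocyte enzymes 1 was separated and higher and 3 lower (Cyp2c29, -1.49, Cyp8b1, -1.37, and Fah, -1.05). The higher one was Cyp3a11, a drug-metabolising cytochrome P450, with 4478, 3696 and 5017 CPM against 8586, 10500 and 14320 CPM (1.38). Of 20 genes of secreted proteins Apoc1 was higher (1.66) and Fga (-1.10), Ahsg (-1.07) and Apoe were lower. Apoe, the ligand of lipoprotein receptors, had 16370, 23250 and 24590 CPM against 11880, 12040 and 7156 CPM (-1.01).

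The counts in this paragraph stand beside the 24.5% of all genes that were separated. Lysosome and autophagy genes, the compartment in which LAL acts, had Lamp2 and Atg5 (1.03) of 25 separated and higher and Tfe3 (-1.21) and Grn (-1.20) lower, with a median of -0.18. Lamp2 had 436, 276 and 530 CPM in low-share and 1048, 897 and 2329 CPM in high-share livers (1.82), and Lamp1 had 788, 604 and 919 CPM against 862, 622 and 754 CPM (-0.01). The protease Ctsb did not overlap either, with 750, 815 and 970 CPM against 530, 440 and 366 CPM (-0.89). Inflammatory cytokines and chemokines had Ccl9, Il18 (1.25), Ccl6 (1.24) and Cxcl9 (1.12) of 16 separated and higher and Tgfb1 (-1.52) lower. The first was Ccl9, which attracts myeloid cells, with 67.1, 39.7 and 54.96 CPM against 181, 270 and 257 CPM (2.17). Of 8 markers of dividing cells 1 was separated, the replication clamp Pcna, with 33.4, 25.3 and 30.4 CPM against 76.8, 76.0 and 98.3 CPM (1.53), while the mitotic kinase Cdk1 (0.02) and the helicase subunit Mcm2 (0.19) overlapped.

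Further lists, though not all, are given beside the 24.5% of all genes that were separated. Of 11 heat shock genes the mitochondrial co-chaperone Hspe1 (2.25) and Hspa1b (1.45) were higher and Hspb1 (-1.62) lower, with a median of 0.17 (-0.17 without FPC-LIPA 37). Of 20 interferon-stimulated genes Oasl2 was lower (-1.33), and of 15 genes of the integrated and endoplasmic reticulum stress responses Dnajb9 was higher (1.88) and Creld2 lower (-1.11). Of 13 clock genes the repressor Nr1d2 alone was separated (1.30). Immediate early genes (0 of 12, median -0.63), cholangiocyte markers (0 of 6) and sinusoidal endothelial markers (0 higher and 1 lower of 8, the scavenger receptor Stab2 at -1.07, and a median of 0.08 that was -0.13 without FPC-LIPA 37) followed. The medians of the heat shock, interferon, clock and endothelial lists were below 0 when scaled by library size alone. Without FPC-LIPA 37 the differences of Ahsg (-0.98), Apoe (-0.81), Ccl6 (0.95), Cxcl9 (0.68), Dnajb9 (0.91), Fah (-0.92), Fga (-0.97), Hspa1b (0.67) and Stab2 (-0.88) were under the 2-fold limit, and Acta2 was at -2.75. Of the list members, those outside the naming rule were named after their values were seen.

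Against FPC-GFP, 111 of 15170 genes were called in the low-share livers (0.732%), of which 106 were higher (0.699%) and 5 lower (0.033%). The smallest adjusted p was 0.00136. In the high-share livers 5099 of 15063 genes were called (33.9%), 2827 higher (18.8%) and 2272 lower (15.1%), with 1864 higher and 3999 lower when scaled by library size alone. The classes share the FPC-GFP livers, so their values are given side by side, and the count of low-share calls fell to 9 without FPC-GFP 13, to 13 without FPC-LIPA 33, to 22 without FPC-LIPA 31 and to 23 without FPC-GFP 12, and was 170 without FPC-GFP 19. It was also 55, 38, 36 and 32 without FPC-GFP 11, FPC-GFP 16, FPC-LIPA 34 and FPC-GFP 20.

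By the naming rule Cd207, Hbb-bs, Wfdc17, Lars2, Leap2 and Ifi27l2a led the higher calls of low-share livers. Cd207, the lectin langerin of dendritic cells, had 11.7, 17.0 and 10.8 CPM in low-share livers and 11.2, 14.4 and 25.5 CPM in high-share livers, against 1.28 to 5.31 CPM in FPC-GFP. Its log2 fold change was 2.15 (SE 0.35, adjusted p = 0.0214, edgeR) in low-share and 2.53 (SE 0.39, adjusted p = 0.000159, edgeR) in high-share livers, so all 6 FPC-LIPA livers lay above FPC-GFP. Lyz2 rose by a log2 fold change of 1.46 (adjusted p = 0.0418, edgeR) and 2.18 (adjusted p = 9.13e-05, edgeR), and Hbb-bs by 1.90 (adjusted p = 0.0111, edgeR) and 3.999 (adjusted p = 1.04e-07, edgeR). Wfdc17 (1.89 and 3.47), Leap2, an antimicrobial peptide of liver (1.69 and 3.91), and Ifi27l2a (1.498 and 3.15) were higher in both as well. Each of these low-share calls passed narrowly and was lost when some single library was left out: for Cd207 when FPC-GFP 12, FPC-GFP 13, FPC-LIPA 31 or FPC-LIPA 33 was, for Hbb-bs when FPC-LIPA 33 was, and for Lyz2 when any library but FPC-GFP 19 was.

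Lars2, the mitochondrial leucyl-tRNA synthetase, had 348, 663 and 600 CPM in low-share livers, 181, 501 and 153 CPM in high-share livers and 116 to 169 CPM in FPC-GFP. Its log2 fold change was 1.88 (SE 0.19, adjusted p = 0.00136, edgeR) in low-share and 0.94 (SE 0.30, adjusted p = 0.0189, edgeR) in high-share livers, where it was below the 2-fold limit. Its row rose together with 3 rows of 57 bases annotated as miRNA genes, Gm24187, Gm23935 and Gm24270, which were also called in low-share livers, and whether they share reads is uncertain.

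The lower calls of low-share livers were Cyp4a12b (-1.59), Hspd1-ps3 (-1.42), 1700001L05Rik (-1.40), Cyp2d9 (-1.15) and Cyp4a12a (-1.12), of which the pseudogene and the long intergenic RNA are outside the naming rule and were named after their values were seen. Cyp4a12a, a fatty acid hydroxylase more abundant in males, had 103, 160 and 149 CPM in low-share and 48.0, 87.7 and 38.8 CPM in high-share livers against 213 to 398 CPM in FPC-GFP. Its log2 fold change was -1.12 (SE 0.22, adjusted p = 0.0350, edgeR) and -2.35 (SE 0.30, adjusted p = 3.7e-05, edgeR), and the low-share call was lost when any library but FPC-GFP 19 was left out.

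In the high-share livers the highest log2 fold changes by the naming rule were those of Cops9 (4.20, SE 0.24, adjusted p = 1.03e-07, edgeR), the smallest subunit of the COP9 signalosome, and Hbb-bs. Cops9 had 389, 571 and 856 CPM in high-share and 76.4, 139 and 62.2 CPM in low-share livers against 21.8 to 39.5 CPM in FPC-GFP, so the classes stepped up without overlap. Rps12-ps3 (3.99), Sec61g of the protein translocation channel (3.99), Leap2 (3.91) and S100g (3.91) completed the highest 6. The lowest were Hsd3b5 (-4.97), Serpina1e (-4.44), Mup7 (-4.04), Cyp4a12b (-3.07), Lad1 (-3.05) and Selenbp2 (-2.64). Hsd3b5, a steroid-metabolising enzyme of male liver, ranged from 0.480 to 104 CPM within FPC-GFP and was at most 0.725 CPM in all 6 FPC-LIPA livers, and its call in high-share livers (adjusted p = 0.0361, edgeR) was lost when any one high-share liver was left out. Mup7 was at -1.93 and not called without FPC-GFP 20, which held 3790 CPM, and its call was also lost without any one high-share liver.

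Calls within the groups of organelle proteins are given beside those of all genes, which were 18.8% higher and 15.1% lower in high-share livers and 0.732% in low-share livers. In high-share livers 50 of 79 oxidative phosphorylation genes were called higher and 1 lower (Cox8a) with a median of 1.35, and in low-share livers 0 were called and the median was 0.15. Of 74 mitochondrial ribosomal proteins 35 were called higher and 2 lower (Mrps2 and Mrps5) with medians of 0.90 and 0.05, and of 38 proteasome genes 11 were called higher and 0 lower with medians of 0.41 (0.06 by library size alone) and -0.11, and in low-share livers 0 of either group were called. Mitochondrially encoded genes had medians of -0.75 and 0.08.

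The medians of immune lists lay above FPC-GFP in the low-share livers, and in the high-share livers all but that of plasma cell markers did. The median log2 fold change in low-share and high-share livers was 1.20 and 0.79 for monocyte and macrophage markers, 0.76 and 0.66 for Kupffer cell markers, and 1.51 and 0.53 for B cell markers, lower in high-share livers. The median was lower there for T cell markers (0.82 over 7 genes and 0.38 over 6) and plasma cell markers (0.745 and -0.13) as well. It was higher in high-share livers for neutrophil markers (1.16 over 4 genes and 3.22 over 3), NK cell markers (0.70 and 0.87), plasmacytoid dendritic cell markers (0.26 and 0.62) and cytokines and chemokines (0.83 and 0.95). Scaled by library size alone, the order turned for NK cell markers (0.77 and 0.52), plasmacytoid dendritic cell markers (0.33 and 0.24) and cytokines and chemokines (0.86 and 0.57). Without FPC-LIPA 37 the median difference between the classes fell from 1.72 to 0.37 for neutrophil markers. For cytokines and chemokines it went from 0.55 to -0.27. In the high-share livers Lyz2, Trem2 (1.78), Ccr2 (1.57) and Gpnmb (1.41) were called higher and Csf1r and Ly6c2 lower, and in the low-share livers Lyz2 was called of these, with Adgre1 and Cd5l (1.08) of 8 Kupffer cell markers and 0 of 8 B cell markers, beside 0.699% of all genes called higher. Csf1r had a log2 fold change of 0.49 (adjusted p = 0.331, edgeR) in low-share livers and fell by 1.28 (adjusted p = 0.000214, edgeR) in high-share livers. Of the stellate cell markers, Col3a1, Dcn and Lrat were called higher and Col1a1, Acta2, Des and Pdgfrb lower in high-share livers, with Col3a1 at 2.23 (adjusted p = 0.00011, edgeR) and Col1a1 at -1.13 (adjusted p = 0.000559, edgeR). Col1a1 was at -0.46 with the GC trend removed and not called, and Csf1r was at -0.89 and not called in that setting.

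Ptprc and Adgre1, the macrophage marker F4/80, were called higher in both classes. Ptprc had log2 fold changes of 1.14 (adjusted p = 0.0325, edgeR) and 2.01 (adjusted p = 0.00124, edgeR), and Adgre1 of 1.35 (adjusted p = 0.0418, edgeR) and 2.06 (adjusted p = 0.00102, edgeR). Without FPC-LIPA 37 the high-share values were 0.93 and 0.94 and neither was called, Ptprc was also lost with the GC trend removed (0.93), and Dcn (1.23 to 0.60), Tcf4 (1.27 to 0.67) and Il1b (1.47 to 0.37) lost their calls as well. Cd79b went from 1.82 to 1.09 without FPC-LIPA 36. The cytokine Tnf had at most 0.809 CPM in any FPC-LIPA liver.

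**Figure D5:**
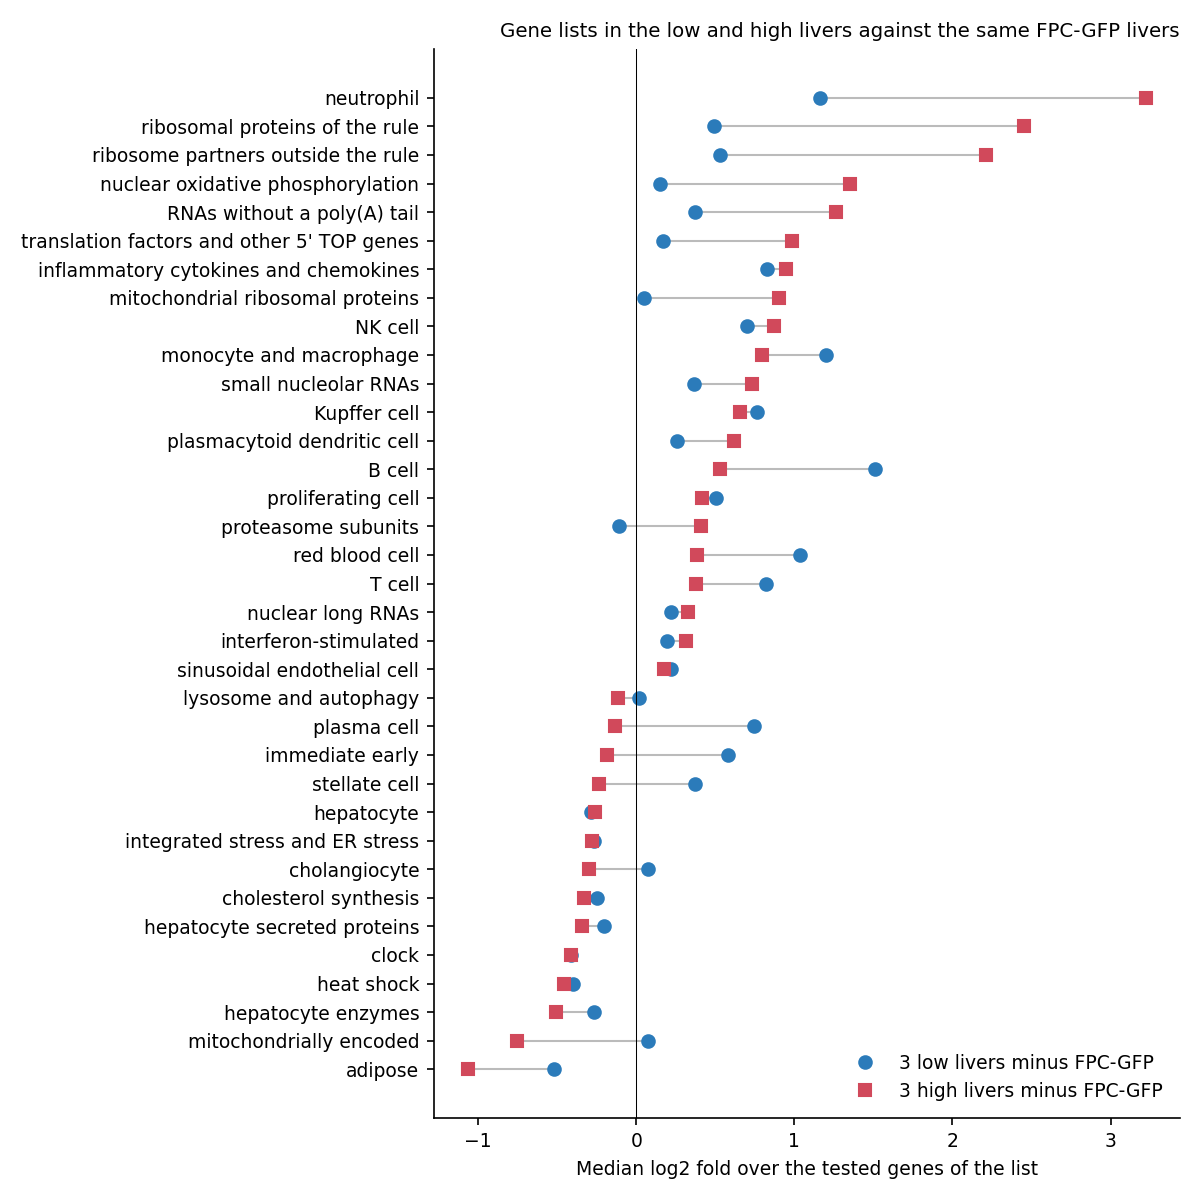
Median log2 fold change from FPC-GFP (x axis) of each gene list (y axis) in low-share livers (blue circles) and high-share livers (red squares). The lists of ribosome, respiratory chain and mitochondrial ribosome lie from 0.05 to 0.53 in low-share livers and from 0.90 to 2.46 in high-share livers, while those of monocytes and macrophages and of B cells lie further right in low-share livers.

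The 12 GFP livers show which genes went with the ribosomal share where no LIPA vector was given. Each gene's slope on the log2 ribosomal percent was tested with the group as covariate, and 1 of 15081 genes was called (0.00663%, edgeR quasi-likelihood test, adjusted p under 0.05), Cyp4a12a, with a slope of -2.89 per doubling (SE 0.38, adjusted p = 0.0394), a call lost by library size alone and when any GFP liver other than CON-GFP 7 or FPC-GFP 19 was left out. Higher slopes were called for 0 genes by edgeR, while 1893 genes had an unadjusted p under 0.05 and the DESeq2 Wald test called 333 (115 higher, 218 lower). Of the separated genes, the slope was above 0 for 1824 of 2024 that were higher in high-share livers (median 0.77), and for 312 of 1493 that were lower (median -0.62), against 7487 of 14482 over all genes (median 0.04). By length and GC the medians of the slope were 0.79 for genes of at most 500 bases and 0.76 for genes of at most 40% GC, and -0.54 above 55% GC. Not every group followed the split. The median slope was 1.30 over 13 mitochondrially encoded genes, whose median in the split was -0.79. It was 0.42 over 79 nuclear oxidative phosphorylation genes, 0.36 over 74 mitochondrial ribosomal proteins and 0.015 over 38 proteasome genes. Genes are not independent of each other, and the GFP livers span only 1.38% to 2.43% of ribosomal counts, below 4 of the 6 FPC-LIPA livers.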

How the data were processed

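Liver RNA of 18 mice was sequenced from poly(A) libraries made with a TruSeq unstranded or stranded mRNA kit, and which kit served which library is not given in the sources used here. The authors trimmed reads with Trimmomatic, aligned them with Hisat2 2.1.0 to GRCm38 (mm10) and deposited raw counts per gene from Feature Counts. The annotation release, strand setting and treatment of reads with several matches are not given in the sources used here. Of 23 columns, 18 were used and 5 of other samples were not. All 55487 genes entered library sizes, and lengths over all exons and the GC of each gene's longest transcript came from GENCODE M21.

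Genes were filtered with filterByExpr and fitted with edgeR 4.0.16 (TMM, quasi-likelihood, Benjamini-Hochberg) in R 4.3.3. A call required an adjusted p under 0.05 and a change of 2-fold or more. The high-share and low-share livers were compared without a test. Ribosomal rows stayed in the fits and out of the counts of genes. P-values measure the spread between mice within the groups compared. Each FPC-LIPA class was chosen by its ribosomal share, so its spread is not that of all FPC-LIPA livers. The p-values against FPC-GFP describe the livers chosen and are no test of the vector. Named genes were those with the largest differences among separated or called protein-coding genes with a mean of at least 5 CPM over the libraries compared, the most abundant members of each list, and genes the study measured. The members and lists were chosen with earlier results of these data known. Alternatives included scaling by library size or DESeq2 1.42.0 factors, trends on length and GC removed, other filters and each library left out. The fits were tested on simulated data. A few genes and sequences are not reported here.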

Additional observations from a re-analysis of the deposited data

Results flagged for a closer look

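Among 90 measures per library, 10 had 1 liver of the 6 FPC-LIPA livers farther from its neighbour than Dixon's 95% limit for 6 samples allows. Chance alone gives this in about 1 of 20 groups, for samples of a single population and measures not chosen by their values. Here the livers fell into classes and many measures were genes named for their differences, so that rate is no yardstick for the count. In 8 of the 10 the liver was FPC-LIPA 37. It was the highest for mitochondrial ribosomal RNA (0.977% of counts, next 0.418%), for the summed CPM of stellate cell markers (1057, next 497), and for Lypla1 (1101 CPM, next 180), Vamp7 (305 CPM, next 73), Adgre1 (153 CPM, next 66.1), Ptprc (73.1 CPM, next 22.6) and Mthfd2l (22.15 CPM, next 3.93). It was the lowest for Cyp2d9 (132 CPM, next 354). FPC-LIPA 39 was the highest for Mup11 (5488 CPM, next 1152), whose reads may be shared with near copies. FPC-LIPA 34 was the highest for Lipa (388 CPM, next 294), which counts mouse Lipa and not the human transgene.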

How the results depend on the processing

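The split held 3640 separated genes, 2047 with length and GC trends removed together and 5997 at a fold of 1.5, and from 3306 to 5237 when 1 liver was left out. The 111 calls of low-share livers became 32 with the length trend removed, 57 with both trends removed, 52 with all 12 FPC livers in 1 fit, 311 by the DESeq2 Wald test, 5 at an adjusted p under 0.01 and 32 in libraries of S numbers 59 to 68, and ranged from 9 to 170 with 1 library left out. The 5099 calls of high-share livers became 3011 with both trends removed and 8149 without a fold minimum, and ranged from 4530 to 5891 with 1 library left out. The slope called 1 gene, 0 by library size, 333 by the Wald test, 0 in FPC-GFP alone and 0 in CON-GFP alone, and from 0 to 1 with 1 library left out. Snord104 in high-share livers turned from 1.03 to -1.16 with the length trend removed and -0.94 with both, and Dcn from 1.23 to -0.025 with the GC trend removed. These settings remove trends, samples or thresholds by construction, and otherwise the cause was not tested. No paired analysis was possible because the groups share no replicate numbers. FPC-LIPA 37 has the fewest counts (16632146), so its low values rest on the fewest reads.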
